A study of Mus musculus with 9 samples.

Results

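The aquaporins examined were Aqp1, Aqp5, Aqp7, Aqp9 and Aqp11 in activated hepatic stellate cells (aHSCs) of the mouse. They were 5 of the 30869 gene symbols on the array and had 11 of its 45281 gene probes. A probe was taken as a member when the deposited annotation gave it one of these symbols. The 5 genes were selected on earlier results of these 9 arrays, so that their levels and all 3 differences between groups are given as a description, with no test.

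Each sample was hybridised to a bead array of its own (Illumina MouseWG-6 v2.0). All were given as from male C57/Bl6 mice of genotype WT1GFP/+, in which green fluorescent protein (GFP) reports the WT1 locus. The study's methods, however, name both sexes for in vitro work and do not state the sex behind the cultured samples. WT1-high cells (replicates 1, 8 and 29) and WT1-intermediate cells (labelled GFP low; replicates 1, 8 and 30) were sorted from livers injured over a long period by intraperitoneal carbon tetrachloride. WT1-negative cells (replicates 3, 11 and 14) were GFP-negative cells sorted after quiescent stellate cells had been activated by culture on plastic for 7 days. All 9 samples thus carried the reporter allele, cells had been enriched by density centrifugation before the sort, and WT1-negative cells from injured liver were not analysed here. The labels used here give no age.

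WT1 status and origin, liver or culture, coincided in every comparison with WT1-negative cells and cannot be told apart. In bulk samples, fewer cells of a type and less RNA per cell cannot be told apart either. Mean signal per array lay between 147.5 and 288.9, the median of the negative control probes between 76.29 and 93.57, and 17253 to 19774 probes per array were detected. A probe was termed detected where its deposited detection p-value was under 0.05. The labelled cell type was checked against 12 stellate cell markers. Desmin (Des) was detected on all 9 arrays and 5 to 6 markers on all 3 arrays of each group, whereas Rgs5, Gfap, Vipr1 and Lhx2 were detected on none. Lrat was detected on 1 array. Reln was detected on all 9 but near background, with mean log2 levels of 4.90, 5.05 and 4.71 in WT1-high, WT1-intermediate and WT1-negative cells. Msln, a defining marker of mesothelium, stood at 11.61 ± 0.21, 10.99 ± 0.16 and 4.45 ± 0.21 on the log2 scale (SD, n = 3) in WT1-high, WT1-intermediate and WT1-negative cells and was detected on 1 of the 3 WT1-negative arrays. Of 12 hepatocyte markers, 7 were detected on all 3 arrays of the WT1-high group, 5 on those of the WT1-intermediate group and 2 on those of the WT1-negative group, among them Ahsg in each, whereas Alb, the albumin gene, was detected on no array. Of 13 macrophage markers, 11, 12 and 10 were detected on all 3 arrays of these groups in the same order. The brightest of them, Lyz2, had mean levels of 11.05, 12.82 and 13.58.

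Aquaporins are channels of the cell membrane through which water moves along an osmotic gradient. Some of them, the aquaglyceroporins, also pass glycerol and other small uncharged solutes. Aqp1 and Aqp5 are water channels, Aqp1 of red cells, endothelium, bile duct epithelium and serosal linings, and Aqp5 of secretory glands and alveolar epithelium. Aqp7 and Aqp9 are aquaglyceroporins, known best from adipocytes and from hepatocytes and leukocytes, in that order. Aqp11 is an unorthodox member that resides largely in membranes inside the cell.

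The members had unlike patterns. Aqp1 differed little between WT1-high and WT1-intermediate cells and lay over WT1-negative cells by 12.5-fold to 15.8-fold, depending on the probe. Aqp5 had its highest level in WT1-high cells, 4.66-fold over WT1-intermediate cells. It was near background in WT1-intermediate cells and at background in WT1-negative cells. Aqp9 ran the other way, 6.30-fold higher in WT1-negative than in WT1-high cells. The sizes of these differences of Aqp1, Aqp5 and Aqp9 depended on the background correction and were smaller without it. Aqp7 and Aqp11 stood at or near background throughout. Levels are log2 intensities after background correction, quantile normalisation and an offset of 16, a scale on which the undetected aquaporin probes lay close to 4.2. Each probe has its own response, so levels are compared between groups for 1 probe and not between probes.

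**Figure D1:**
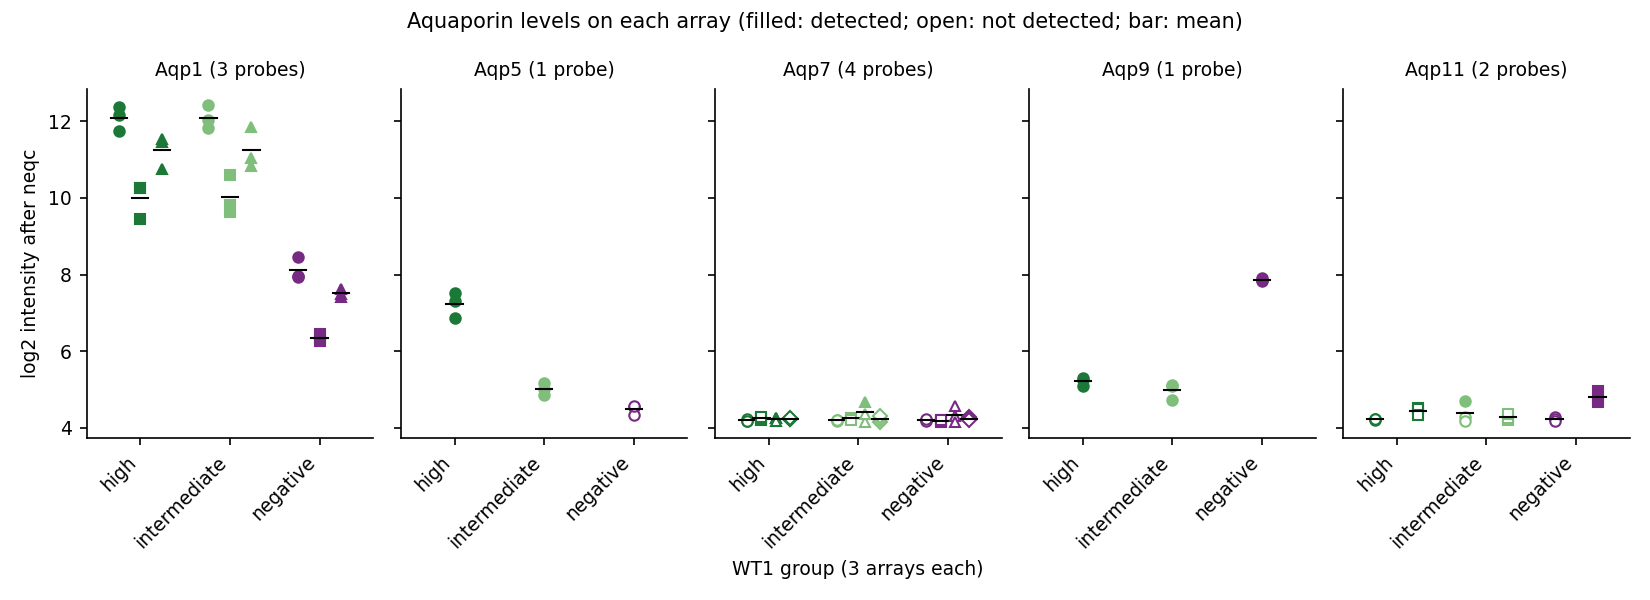
Log2 intensity after neqc on each of the 9 arrays for the 11 aquaporin probes, by gene and WT1 group; each marker shape is 1 probe of the gene, filled where detected and open where not, with a bar at the mean of 3 arrays. Aqp1 is high in both in vivo groups, Aqp5 steps down from 7.23 to 5.01 to 4.48, and Aqp9 is highest, at 7.87, in WT1-negative cells.

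Aqp1 was represented by 3 probes. The first 30 bases of each are shown, since they mark 3 separate stretches of the transcript (the longest run shared by any pair was 6 bases), so that the probes are separate readings of 1 gene:
ILMN_2756486: gaaccaggaccttgtatctgtctgctctgt
ILMN_2980661: gctgcacactcgtctccgttccctagcaga
ILMN_2980663: cactgtgcccttaaccacattgtgaaccga

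The log2 level of Aqp1 by ILMN_2756486 was 12.17, 12.38 and 11.75 on the WT1-high arrays 1, 8 and 29. It was 12.03, 12.43 and 11.83 on the WT1-intermediate arrays 1, 8 and 30. On the WT1-negative arrays 3, 11 and 14 it was 8.45, 7.94 and 7.96. The 6 in vivo arrays lay above the 3 cultured ones with a wide gap, and the values of the WT1-high and WT1-intermediate arrays interleaved. Means were 12.10 ± 0.32, 12.10 ± 0.31 and 8.12 ± 0.29 (SD, n = 3). The in vivo groups differed by 0.00 on the log2 scale with an SE of 0.22. Against WT1-negative cells it was 3.98 for both in vivo groups, again with an SE of 0.22.

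The other Aqp1 probes also set the in vivo groups level and the cultured cells below them. ILMN_2980661 had means of 11.25 ± 0.43, 11.25 ± 0.54 and 7.51 ± 0.11 (SD, n = 3). ILMN_2980663 had means of 9.99 ± 0.47, 10.02 ± 0.52 and 6.35 ± 0.09. Their differences against WT1-negative cells lay between 3.64 and 3.74, or 12.5-fold to 13.3-fold, and those between the in vivo groups were -0.03 and -0.00 with SEs of 0.27. Without background correction the difference of ILMN_2980663 between WT1-high and WT1-negative cells was 2.80, and those of ILMN_2980661 and ILMN_2756486 were 3.29 and 3.68. All 3 probes were detected on all 9 arrays, so Aqp1 was lower in the cultured cells but was not at background there. The deposited signals of ILMN_2756486 in WT1-negative cells, 472.1, 358.2 and 369.7, were 5.09, 3.91 and 3.95 times the median of the negative control probes, against 25.3 to 73.5 times on the in vivo arrays. Each of these signals averaged 39 to 46 beads on the 8 arrays whose bead columns were used, with a bead standard error of 2.32% to 3.91%, so that the spread over arrays and not over beads set the error.

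Aqp5 was represented by 1 probe, ILMN_3115472, and its first 30 bases are shown because the difference between the in vivo groups rests on it:
Aqp5 probe: ctcatgtgccaaagccttcccccaggtaga

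The log2 level of Aqp5 was 7.51, 7.32 and 6.86 on the WT1-high arrays 1, 8 and 29. It was 5.17, 5.01 and 4.86 on the WT1-intermediate arrays 1, 8 and 30, and 4.54, 4.33 and 4.57 on the WT1-negative arrays 3, 11 and 14. On this normalised scale the groups formed 3 steps with no overlap. Aqp5 was detected on all 6 in vivo arrays and on none of the WT1-negative arrays, where its detection p-values were 0.0833, 0.249 and 0.0598. Means were 7.23 ± 0.33, 5.01 ± 0.16 and 4.48 ± 0.13 (SD, n = 3), and WT1-high exceeded WT1-intermediate by 2.22 with an SE of 0.18. Against the background limit of the WT1-negative arrays, the WT1-high group had at least 6.18-fold more Aqp5 signal. For the WT1-intermediate group the bound was at least 1.32-fold, and that call was lost without WT1-intermediate replicate 1 or 8 or any WT1-negative replicate (differences of 0.45 to 0.57). These bounds hold for background-corrected values. Without the correction the measured log2 differences of Aqp5 from culture were 1.23 and 0.16 for WT1-high and WT1-intermediate cells, and with an offset of 50 they were 1.71 and 0.23. On the linear scale the WT1-intermediate signals, 92.55, 103 and 82.54, stood 1.08 to 1.21 times over the negative control median, and the WT1-high signals, 256.6, 321.2 and 177.5, stood 2.09 to 3.47 times over it. The WT1-negative signals, 99.94, 94.41 and 102.2, stood 1.03 to 1.09 times over it. Deposited signals of the WT1-intermediate and WT1-negative arrays thus overlapped. The lower end of the step thus lay near background, and without background correction the difference between the in vivo groups was 1.07.

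A second probe bore on Aqp5. ILMN_1259982 is annotated as LOC100046616, a predicted gene described as similar to aquaporin 5. It is no member by symbol, was picked out after its values were seen, and shares no run over 6 bases with the Aqp5 probe. Its first 30 bases were:
LOC100046616 probe: tgggctccccagccttatccattggcttgt

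It was detected on the 3 WT1-high arrays and on no other array, with means of 5.22 ± 0.36, 4.29 ± 0.11 and 4.25 ± 0.06 (SD, n = 3). It was at least 1.59-fold higher in the WT1-high than in the WT1-intermediate group and at least 1.54-fold higher than in culture. Whether it reads the Aqp5 transcript was not tested.

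The in vivo arrays carry recurring label numbers, and the study states that they came from 3 animals, so differences were also taken within numbers. WT1-high less WT1-intermediate gave 2.34, 2.32 and 2.01 for Aqp5 in numbers 1, 8 and 29 with 30. Aqp1 by ILMN_2756486 gave 0.14, -0.06 and -0.08, and its other probes were likewise positive in number 1 and negative in the remaining numbers. Aqp9 gave 0.19, 0.13 and 0.38. On this normalised scale Aqp5 was thus higher in WT1-high cells by a similar amount in each number, while Aqp1 changed sign between numbers. The deposited signals of ILMN_2756486 were higher on the WT1-high array in each number (5044, 6805 and 3852 against 3246, 5463 and 1930). The mean signals of those arrays were higher too (233.1, 288.9 and 231.4 against 183.5, 220.5 and 147.5). With median scaling, ILMN_2756486, ILMN_2980663 and ILMN_2980661 differed by 0.54, 0.65 and 0.63 between the in vivo groups, none of them called.

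**Figure D2:**
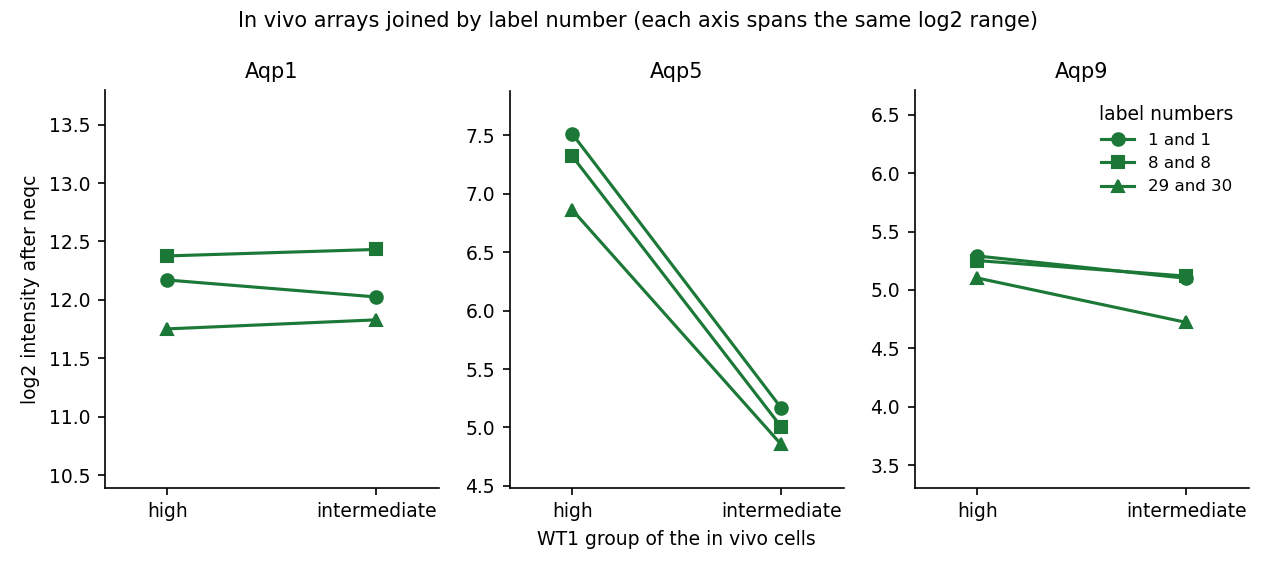
Log2 intensity after neqc of Aqp1 (ILMN_2756486), Aqp5 and Aqp9 on the 6 in vivo arrays, with lines joining the WT1-high and WT1-intermediate arrays by label number and each vertical axis spanning the same log2 range. The Aqp5 lines fall in parallel by 2.01 to 2.34, whereas those of Aqp1 are close to level.

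Aqp9 was represented by 1 probe, ILMN_1214634, shown by its first 30 bases because it carries the opposite pattern:
Aqp9 probe: cggcgttcctcgataacagcaagtttcccc

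The log2 level of Aqp9 was 5.29, 5.25 and 5.10 on the WT1-high arrays 1, 8 and 29. It was 5.10, 5.12 and 4.72 on the WT1-intermediate arrays 1, 8 and 30, and 7.84, 7.86 and 7.92 on the WT1-negative arrays 3, 11 and 14. The cultured cells lay above all in vivo cells, while the in vivo groups overlapped. Means were 5.21 ± 0.10, 4.98 ± 0.22 and 7.87 ± 0.04 (SD, n = 3). WT1-high differed from WT1-intermediate cells by 0.23 with an SE of 0.15, a difference that turned to -0.07 under cyclic loess normalisation. Set against WT1-negative cells, the WT1-high group differed by -2.65 and the WT1-intermediate group by -2.89, each with an SE of 0.15, or 6.30-fold and 7.41-fold higher in WT1-negative cells. Without background correction these differences were -1.45 and -1.53, and with an offset of 50 they were -1.91 and -2.03. Aqp9 was detected on all 9 arrays, but its in vivo signals were only 1.07 to 1.43 times the negative control median, against 3.55 to 3.87 times in culture.

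Aqp7 was represented by 4 probes, of which 2 (ILMN_1254953 and ILMN_1223330) share a run of 43 bases and read nearly the same site. Of the 36 readings of these probes over the 9 arrays, 1 was detected, that of ILMN_1254953 on the WT1-intermediate array 30. Its level there was 4.67, and every group mean of the 4 probes was lower than that, so that no group could be placed above another. Aqp11 was represented by 2 probes. ILMN_2670407 was detected on 1 array, again WT1-intermediate 30. ILMN_1225901 was detected on 1 WT1-high array, no WT1-intermediate array and all 3 WT1-negative arrays, with means of 4.44 ± 0.10, 4.27 ± 0.08 and 4.79 ± 0.14 (SD, n = 3). It was at least 1.18-fold higher in culture than in the WT1-intermediate group. The WT1-high group differed from the WT1-negative group by -0.35 with an SE of 0.14, and ILMN_2670407 by -0.01 with an SE of 0.13.

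Of the 11 member probes, 6 passed the filter on low signals (3 of Aqp1 and 1 each of Aqp5, Aqp9 and Aqp11), and the 4 Aqp7 probes and 1 Aqp11 probe did not. A probe that is high in 1 group only can pass through that group, so the counts that follow are no support. Between WT1-high and WT1-intermediate cells, 1 of the 6 probes was called by limma (adjusted p under 0.05), that of Aqp5, which was higher. Among all 20573 probes tested, 3.55% were called, 0.904% higher and 2.64% lower in WT1-high cells, and 20.1% had groups that did not overlap. Between WT1-high and WT1-negative cells all 6 were called, 4 higher and 2 lower, against 59.6% of all probes (26.5% higher and 33.1% lower) and 68.4% with groups that did not overlap. Between WT1-intermediate and WT1-negative cells all 6 were called, 4 higher and 2 lower, against 58% (24.4% higher and 33.6% lower) and 65.5% without overlap. The rule rests on these contrasts, and nothing is read from the counts. The median difference of all probes tested was 0.05, -0.10 and -0.13 in the 3 comparisons.

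**Figure D3:**
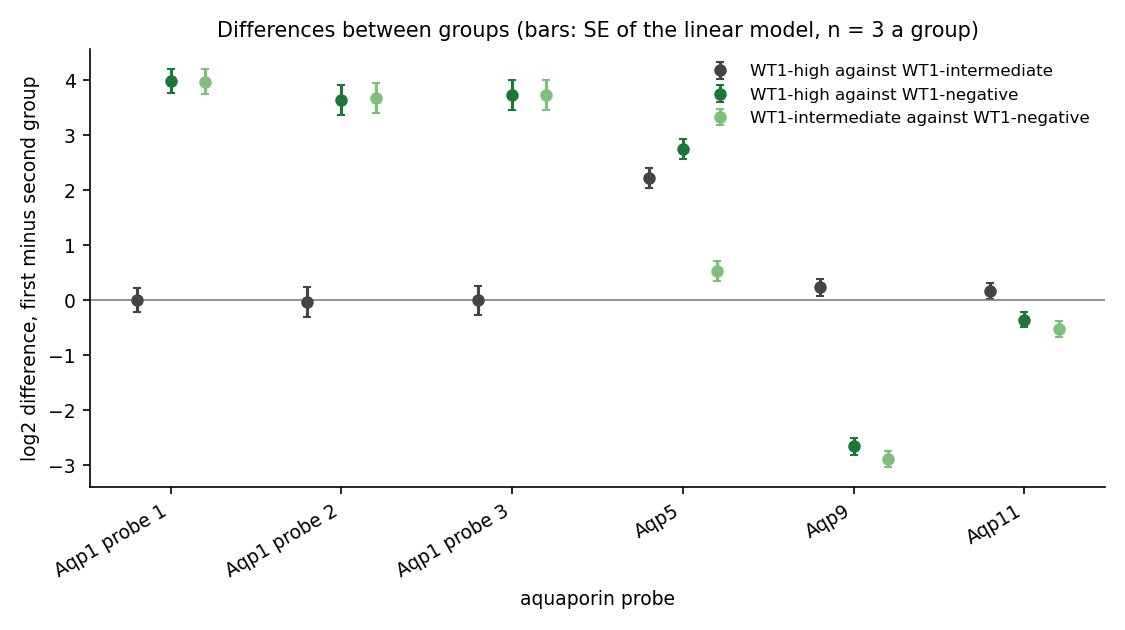
Log2 difference between groups (first minus second named) for the 6 aquaporin probes that passed the filter, with the SE of the linear model as bars and n = 3 arrays a group; Aqp1 probes 1 to 3 are ILMN_2756486, ILMN_2980663 and ILMN_2980661. Aqp1 lies near 0 between the in vivo groups, Aqp5 at 2.22, and Aqp9 at -2.65 and -2.89 against WT1-negative cells.

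The rest of the family was close to background. The array held 7 other aquaporin genes with 11 probes, namely Mip (the lens channel), Aqp2 (the vasopressin-regulated channel of the collecting duct), Aqp3 (an aquaglyceroporin of epithelia), Aqp4 (the main channel of astrocytes), Aqp6, Aqp8 and Aqp12. None of their group means exceeded 4.72, and only Aqp2, Aqp3 and Aqp4 had a probe that passed the filter. Aqp4 was called at least 1.12-fold higher in culture than in the WT1-intermediate group (limma, adjusted p = 0.042), with detection on 0 and 3 arrays. It was not called between WT1-high and WT1-negative cells (-0.25, adjusted p = 0.15, limma). Aqp2 gave differences of 0.04, 0.15 and 0.11 and Aqp3 of -0.09, -0.01 and 0.08 in the 3 comparisons, none of them called (limma, adjusted p between 0.39 and 0.98). Signal clearly over background was thus seen for Aqp1, for Aqp5 in WT1-high cells and for Aqp9 in culture.

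**Figure D4:**
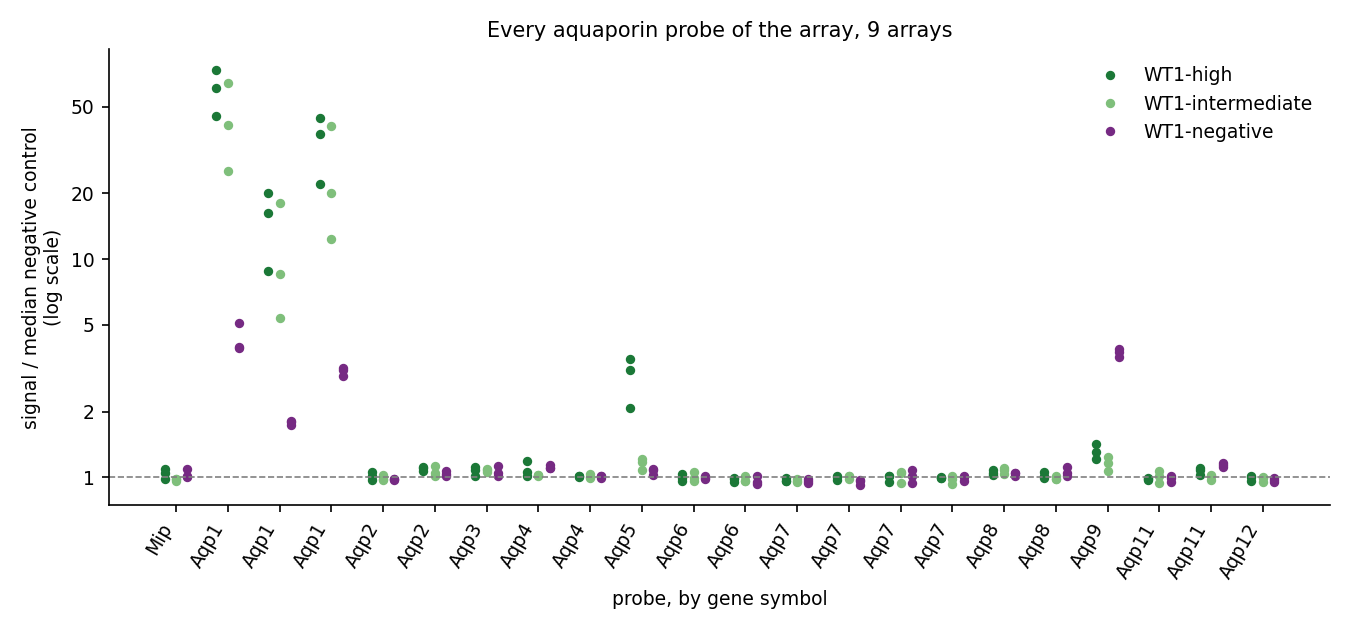
Deposited signal divided by the median negative control signal of the same array (log scale) for the 22 probes of 12 aquaporin genes, by WT1 group on 9 arrays; the dashed line is the negative control median. Apart from Aqp1, Aqp5 and Aqp9, the probes stay near 1, while Aqp1 reaches 73.5.

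Markers of other cells that are known to make these channels were measured on the same arrays, as sums of normalised intensities on the linear scale over lists of markers. For Aqp1, 12 endothelial markers summed to 1270 to 1720 (WT1-high), 2240 to 2510 (WT1-intermediate) and 1900 to 2670 (WT1-negative), and Pecam1 had levels of 5.39, 5.91 and 6.83 in that order. The 8 biliary markers summed to 3900 to 4390, 4490 to 10000 and 6130 to 6850, with Epcam detected on no array. The members of these lists differed in direction, and a single gene can carry a sum. Spp1, the brightest biliary marker in culture, had levels of 9.99, 12.03 and 12.59, whereas Krt7 had levels of 10.21, 9.51 and 5.46 and Krt19 of 10.62, 9.97 and 4.45. Among the endothelial markers Clec4g had levels of 9.55, 10.24 and 6.79, lowest in culture where Pecam1 was highest. The part of endothelial or biliary cells in the Aqp1 level was not tested. No red cell marker was detected on all 3 arrays of a group; the 8 on the array summed to 160 to 260, 159 to 279 and 166 to 169, Hbb-b1 was detected on 3 arrays, and Slc4a1 and Epb4.2 on none.

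The 12 mesothelial markers on the array had higher sums in vivo than in culture, as Aqp1 and Aqp5 had higher levels. Their sums were 36100 to 40700, 21200 to 29200 and 444 to 560 in the same order, with all 12 detected on every in vivo array and 4 on all 3 WT1-negative arrays. The sums of the in vivo groups did not overlap, nor did the levels of Aqp5, while those of Aqp1 did. Single markers varied in this. In WT1-high and WT1-intermediate cells Dmkn had levels of 13.04 and 12.12, whereas Gpm6a had 11.25 and 11.11 and Bnc1 had 8.90 and 8.57. Podxl, with levels of 6.50, 5.78 and 5.73, was close in WT1-intermediate and WT1-negative cells. The part of mesothelial cells in the levels of Aqp1 and Aqp5 was not tested.

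For Aqp9, the 13 macrophage markers summed to 4910 to 8230, 15500 to 26200 and 43700 to 48900 in the same order. Csf1r, the receptor that defines the lineage, had levels of 7.98, 9.39 and 9.09, and Cd5l was detected on no array. The members of this list also differed in direction, and a few bright genes can carry the sum. Cd68, Lyz2, Cd14, C1qa, C1qb and C1qc were highest in culture. Clec4f (5.58, 6.92 and 4.25), Marco (7.15, 9.15 and 6.78), Lyz1 and Mpeg1 were lowest in culture. Adgre1, like Csf1r, was highest in WT1-intermediate cells and lowest in WT1-high cells. The part of macrophages in the Aqp9 level was not tested. The 9 neutrophil markers on the array summed to 1220 to 2460, 1910 to 3080 and 454 to 752, and S100a8 had levels of 9.83, 10.50 and 8.11, the lowest in culture. Mpo (4.32, 4.99 and 6.00) and Elane (4.30, 4.47 and 5.27) went the other way and were highest in culture. The remaining neutrophil markers were lowest there. The 12 hepatocyte markers summed to 616 to 2660, 731 to 2020 and 273 to 371, with the lowest sums in culture. Ttr (8.70, 8.65 and 5.02), Ahsg (8.60, 7.88 and 5.84), Apoa1, Apoa2 and Cyp2e1 were detected on all 6 in vivo arrays, Hnf4a had its highest level in culture (5.31, against 4.71 in WT1-high cells), and Fgb and Tat, like Alb, were detected on no array. The part of hepatocytes in the Aqp9 level was not tested. For Aqp7, no adipocyte marker of 8 was detected on all 3 arrays of any group; their sums lay between 153 and 174, Adipoq was detected on 1 array, and Plin1, Cidec, Retn and Cfd were detected on none. The 12 stellate cell markers summed to 3050 to 4550, 2510 to 3370 and 1140 to 1540, with Ecm1 the brightest (11.60, 11.31 and 9.53). Des had levels of 8.12, 6.73 and 8.07 and Pdgfrb of 5.02, 6.30 and 6.15, neither of which was lowest in culture.

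Genes with the profile most like each member were sought over the 9 arrays by the root mean square difference of mean-centred log2 levels. Nearest to Aqp1 were LOC100044177 (0.18), Sulf1 (0.22) and Prss12 (0.23), where Aqp1 itself had an SD of 2.01 over the arrays. Sulf1, an extracellular sulfatase that trims heparan sulfate, had mean levels of 9.98, 9.89 and 6.22. Nearest to Aqp5 were Gpr120 (0.28), Vat1l (0.29) and Sez6l (0.41), against an SD of 1.28. Gpr120, a receptor for long-chain fatty acids, had mean levels of 6.83, 4.47 and 4.24. Nearest to Aqp9 were Rrm2, Etv1 and 4833427B12Rik (0.15 each), against an SD of 1.40. Rrm2, a subunit of ribonucleotide reductase made in dividing cells, had mean levels of 4.60, 4.28 and 7.07. Aqp11 varied too little (SD 0.25) for a profile to be read, and its nearest genes were Got2, Usp47 and LOC385843 (0.05 to 0.06).

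Genes that lie beside the members on the chromosome were set next to them, by gene order in RefSeq. On either side of Aqp1, Mindy4 and the brighter probe of Ghrhr were detected on no array, while Inmt, a methyltransferase gene further out beyond Mindy4, was called in all 3 comparisons (limma). Inmt had mean levels of 7.62, 11.25 and 4.33 and fell by 3.63 from the WT1-intermediate to the WT1-high group (limma, adjusted p = 6.6e-06), groups that overlapped for Aqp1. Aqp5 lies between Aqp2 and Aqp6, and both were near background. Faim2, beyond Aqp2, was detected on the WT1-high arrays and on no other, like the probe of LOC100046616, and was at least 1.20-fold higher than in WT1-intermediate cells, a difference that was not called (limma, adjusted p = 0.082). Beside Aqp9, Lipc was detected on no array and Aldh1a2, which makes retinoic acid, was higher by 2.47 in WT1-high than in WT1-negative cells (limma, adjusted p = 4.7e-05), opposite in direction to Aqp9. Beside Aqp7, Nfx1 differed by -0.69 (limma, adjusted p = 0.015) and Aqp3 by -0.01 (limma, adjusted p = 0.98) between WT1-high and WT1-negative cells. Beside Aqp11, Clns1a differed by -0.76 (limma, adjusted p = 0.0014) and Pak1 by -1.09 (limma, adjusted p = 0.0019) in the same comparison.

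The sequences before the transcript starts are shown for the 3 members with signal, since the groups were sorted on a transcription factor and these members differed between them. They are RefSeq windows of 250 bases that end at the base before the annotated start, on build GRCm38.p6. The array files name no build, and no probe was placed on the genome. Capitals mark GCGTGGG, a core shared by the binding motifs of WT1 and EGR factors, searched on both strands and chosen after the windows had been viewed. Aqp9 has a pair of start sites, of which the upstream one is shown:
Aqp1 chr6:55336049-55336298 (+): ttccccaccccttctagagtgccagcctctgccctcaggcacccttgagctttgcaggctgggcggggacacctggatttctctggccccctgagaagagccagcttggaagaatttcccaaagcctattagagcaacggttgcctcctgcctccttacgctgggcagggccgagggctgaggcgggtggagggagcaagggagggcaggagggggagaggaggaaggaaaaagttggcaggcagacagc
Aqp5 chr15:99590778-99591027 (+): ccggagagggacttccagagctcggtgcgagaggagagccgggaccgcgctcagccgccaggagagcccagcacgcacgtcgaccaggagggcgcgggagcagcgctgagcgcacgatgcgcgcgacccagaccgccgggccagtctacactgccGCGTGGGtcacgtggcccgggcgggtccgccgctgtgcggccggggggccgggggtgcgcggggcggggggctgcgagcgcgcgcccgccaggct
Aqp9 chr9:71163290-71163539 (-): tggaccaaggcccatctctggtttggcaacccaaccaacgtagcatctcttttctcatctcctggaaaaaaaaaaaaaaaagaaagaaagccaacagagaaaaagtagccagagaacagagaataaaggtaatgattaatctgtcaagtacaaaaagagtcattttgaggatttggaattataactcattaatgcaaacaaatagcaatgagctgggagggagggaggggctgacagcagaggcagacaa

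GCGTGGG occurred once in the Aqp5 window, 95 bases before the start, and once in that of Aqp11, 12 bases before the start, and in no other window of the 5 members (7 start sites). Of all 32851 RefSeq windows of this length, 4.30% held it. The windows differed widely in base composition. That of Aqp5 held 38 CpG dinucleotides, as many as or more than all but 1.88% of the windows, and 78.4% of its bases were G or C. Aqp11 had 23 CpG, Aqp1 had 5, and Aqp9 had 1 and 3 at its start sites, beside a median of 6 over all windows. A match is a description of the letters and does not show that a factor binds there.

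Genes that act beside aquaporins were taken from 3 lists, on glycerol handling, on the osmotic response and cell volume, and on fluid and acid-base transport. Together with the other aquaporins they held 53 genes, of which 41 were tested. Between WT1-high and WT1-intermediate cells none was called higher and 3 were called lower, beside 0.904% and 2.64% of all probes. Against WT1-negative cells, 15 were called higher and 9 lower in WT1-high cells, and 11 higher and 11 lower in WT1-intermediate cells. The background of all probes was 26.5% higher and 33.1% lower in the WT1-high comparison and 24.4% higher and 33.6% lower in the WT1-intermediate one. All adjusted p in the paragraphs on these genes are limma's, by Benjamini-Hochberg over all 20573 probes.

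Of 9 glycerol genes tested, 2 rose and 3 fell in WT1-high against WT1-negative cells (median difference -0.27, beside -0.10 over all probes, of which 26.5% were called higher and 33.1% lower). Mgll, the lipase that frees glycerol from monoacylglycerols, was higher by 3.98 in WT1-high cells (SE 0.17, adjusted p = 1.4e-08, limma) and by 3.43 in the WT1-intermediate group. Fbp1, an enzyme of gluconeogenesis, was higher in WT1-high cells by at least 1.11-fold (adjusted p = 0.048, limma). Gyk, the glycerol kinase that traps glycerol in the cell, differed by -1.76 and -1.32 in the WT1-high and WT1-intermediate groups (adjusted p = 0.00019 and 0.0015, limma). Its mean level was thus highest in WT1-negative cells, as was that of Aqp9. Pnpla2, which starts the breakdown of triglyceride, differed by -0.57 and -0.82 in the same groups. Gpam, which starts glycerolipid synthesis, was at least 1.16-fold higher in WT1-negative than WT1-intermediate cells (adjusted p = 0.021, limma), so that against culture 1 of 9 rose and 3 fell (median -0.23, beside -0.13).

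Pparg, a nuclear receptor known to control aquaglyceroporin genes in fat, was the 1 gene of this list called between the in vivo groups. Its mean levels were 5.29, 7.02 and 7.25 in WT1-high, WT1-intermediate and WT1-negative cells. The WT1-high group differed by -1.72 from the WT1-intermediate (SE 0.40, adjusted p = 0.041, limma) and by -1.95 from the WT1-negative group (adjusted p = 0.0015, limma). WT1-intermediate and WT1-negative cells differed by -0.23 with an SE of 0.40. The list's median between the in vivo groups was 0.18, beside 0.05 over all probes.

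Of 15 osmotic and cell volume genes tested, 5 rose and 3 fell in WT1-high against WT1-negative cells (median -0.17, beside -0.10), and 6 rose and 5 fell in WT1-intermediate cells (median 0.13, beside -0.13). Over all probes 59.6% and 58% were called in these comparisons. Stk39, a kinase that activates sodium-potassium-chloride cotransport, was higher by 2.12 and 1.34 (adjusted p = 4.5e-06 and 0.00016, limma). Akr1b3, the aldose reductase that makes sorbitol, was higher by 1.40 and 1.55, and Nfat5, the transcription factor of the hypertonic response, by 1.27 and 1.45 (adjusted p between 1.6e-05 and 0.00033, limma). Among the genes that fell, Slc6a6, the taurine transporter, differed by -1.65 and -1.42, and Lrrc8d, a subunit of the volume-regulated anion channel, by -1.51 and -0.77. Clns1a, which also lies beside Aqp11, differed by -0.76 and -0.61, and Lrrc8c by -0.63 in the WT1-intermediate group (adjusted p = 0.035, limma).

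Between the in vivo groups 2 of these 15 genes fell and none rose (median -0.07). Lrrc8d differed by -0.74 (adjusted p = 0.017, limma). Slc6a12, the betaine transporter, was at least 1.32-fold higher in the WT1-intermediate group (adjusted p = 0.038, limma), and it was detected on the 3 WT1-intermediate arrays and on no other. These calls and that of Pparg rested on few arrays. The count of 3 fell to 0 without WT1-high replicate 8 or 29, and to 1 without WT1-high replicate 1, WT1-intermediate replicate 1 or any WT1-negative replicate. It rose to 5 with a fixed replicate block and to 7 with a random one.

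Of 14 fluid and acid-base transport genes tested, none was called between the in vivo groups (median 0.26, beside 0.05). In WT1-high against WT1-negative cells 8 rose and 3 fell (median 0.57, beside -0.10), where 26.5% of all probes were called higher and 33.1% lower. In WT1-intermediate cells 4 rose and 2 fell (median 0.40, beside -0.13), where 24.4% and 33.6% were. Atp1b1, the beta subunit of the sodium pump that sets the gradients water follows, was higher by 3.29 and 3.07 (adjusted p = 3.3e-07 and 7.4e-07, limma). Its mean levels were 9.94, 9.71 and 6.65. Car9, a carbonic anhydrase of the cell surface, was higher by 2.28 and 1.86, Slc9a3r1, a scaffold of membrane transporters, by 2.01 and 1.55, and Slc4a4, a sodium bicarbonate cotransporter, by 1.76 and 2.13. The bicarbonate transporter Slc4a7 differed by -1.35 and -1.38 (adjusted p = 2e-04 in both, limma). Car13, a cytosolic carbonic anhydrase, differed by -0.45 and -0.98, and Atp1b3, another beta subunit of the pump, by -0.50 in WT1-high cells.

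**Figure D5:**
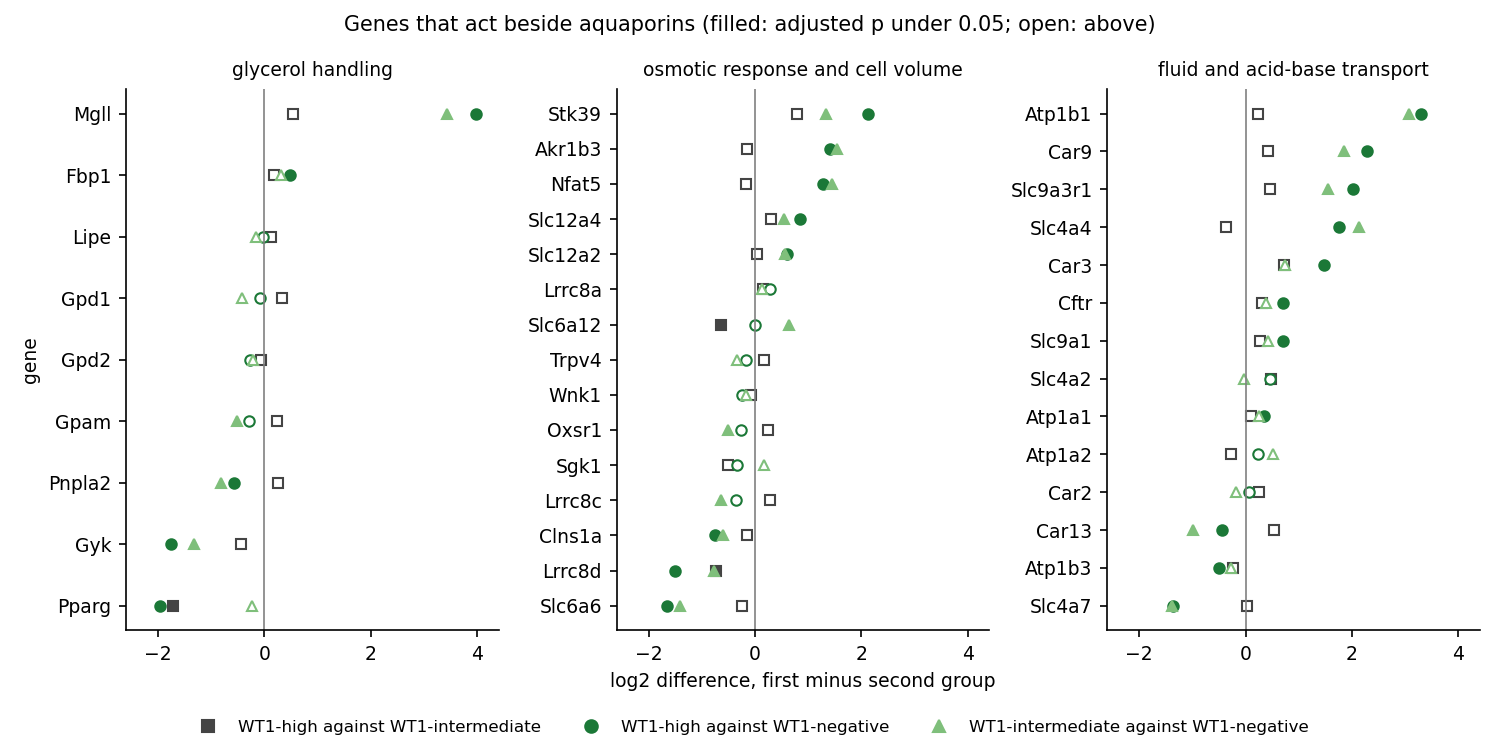
Log2 difference between groups (first minus second named) of the tested genes of the 3 lists, with n = 3 arrays a group; filled symbols passed an adjusted p of 0.05 and open ones did not. Mgll at 3.98 and Atp1b1 at 3.29 lie farthest to the right against WT1-negative cells, and Pparg, Slc6a12 and Lrrc8d are the filled squares of the in vivo comparison.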

How the data were processed

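The members and gene lists were chosen with earlier results of these data known. Per the file headers, the authors deposited summary probe profiles of 9 arrays, which hold for every probe a linear intensity without normalisation, a detection p-value, a bead number and a bead standard error (used as a signal spread). The 9 arrays, 3 a group, held 45281 gene and 936 negative control probes. In the in vivo profile the third WT1-intermediate array carried the number 29, which no such label has. Its intensities were therefore taken from the deposited table joining all arrays (identical for the other 8, largest difference 0), its detection p-values and control probes were assigned by group as the array left, and 3 unmatched columns were not used.

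Intensities were processed in R 4.3.3 with limma 3.58.1 by neqc (background from negative controls, quantile normalisation, offset 16, log2). Probes with a detection p-value under 0.05 on at least 3 arrays were kept (20573). The linear model had 3 groups and all 9 arrays, with 6 residual degrees of freedom and 5.19 added by the prior, and limma's moderated two-sided test was adjusted by Benjamini-Hochberg over all kept probes, with a call under 0.05. Per the submitters' processing notes the authors used limma too. Errors are SD over arrays or the SE of the model, and the number of arrays limits their precision. For a probe without detection throughout the dimmer group, the fold is a lower bound ("at least") of the brighter mean over, per array, the higher of the lowest detected signal and the probe's own. Such bounds depend on the background correction and on the offset of 16. A gene of a list was represented by its kept probe with the highest mean. Of the marker genes, 88 matched by symbol and 6 by Entrez ID, and 3 were not found. Wt1 was among those not found, so no level of it is given and the group names rest on the sort by GFP.

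Named genes were all members, the other aquaporins, up to 3 called rises and 3 called falls per list and comparison, the 3 genes of nearest profile per member, defining markers and markers detected on no array. Neighbouring genes were taken by position, and further markers were named after their values were seen.

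Label numbers were checked for pairing by correlating deviations from group means across probes. Numbers 1, 8 and 29 with 30 gave 0.35, 0.34 and 0.47, and other combinations -0.39 to 0.03, so that the numbers were taken to pair the in vivo arrays. Deviations cancel within a group, so the low values of the other combinations follow in part from the high ones and are no separate evidence. The model has no block, and blocks were alternatives, beside other background correction, scaling, offset, filters, groups fitted and each array left out. Between groups without pairs, p-values measure the spread between these samples. Only the linear model and its calls were run on simulated data, which were log2 levels with independent arrays. Background correction, normalisation, filter, lower bounds and pairing were not tested in this way.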

Additional observations from a re-analysis of the deposited data

How the results depend on the processing

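Calls of the member probes of Aqp1, Aqp5 and Aqp9 against WT1-negative cells, and of Aqp5 between the in vivo groups, held under every alternative run, except that of Aqp5 between WT1-intermediate and WT1-negative cells. That call was lost in 9 of its 17 alternatives. The call of Aqp11 between WT1-high and WT1-negative cells was lost in 14 of 16, among them all that leave out 1 array except WT1-intermediate replicate 30. The cause was not tested. The Aqp5 difference between the in vivo groups ranged from 1.07 without background correction to 2.49 with median scaling. The alternatives reuse the arrays on which the members were selected. Calls that held therefore describe the dependence on processing and are no support.

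Between WT1-high and WT1-intermediate cells, 730 probes were called, and 2684 with median scaling, 335 without a filter, 339 with the compared groups only, 1752 with the random replicate block and 1520 with the fixed replicate block. Leaving out 1 array at a time gave 324 to 866. The count of 3 genes beside aquaporins became 1 without background correction, 1 with an offset of 50, 0 with the compared groups only, 7 with the random block and 5 with the fixed block, and lay between 0 and 3 with 1 array left out. The pairing by block changed no call of an aquaporin probe between the in vivo groups. With median scaling the all-probe median of this comparison moved from 0.05 to 0.45, and calls split into 2563 higher and 121 lower, against 186 and 544. Relative to that median, Aqp5 differed by 2.04 and Aqp1 by 0.09 (ILMN_2756486), 0.20 (ILMN_2980663) and 0.18 (ILMN_2980661). Without background correction the split was 189 and 313. In WT1-intermediate against WT1-negative cells median scaling gave a median of -0.44 and 2545 higher and 8456 lower calls, against 5029 and 6906. Signal over background limits Aqp5, Aqp7, Aqp9 in vivo and Aqp11.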
